A study of Homo sapiens with 36 samples.

Results

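The comparison described here set SW1783 cells given 10 µM wortmannin against SW1783 cells given vehicle, both for 24 h. SW1783 is an established human astrocytoma cell line. The comparison held 6 of the 36 RNA sequencing libraries of the study, 3 per group, and they were chosen by their sample names alone, so that every gene in the table belonged to it. In the study wortmannin served as a reference drug beside a plant extract, and a colorectal adenocarcinoma line, HT29, received the same drug. Both SW1783 groups belonged to batch A, and the labels gave the vehicle as 0.1% DMSO. Cells were grown in L-15 medium with serum and plated the day before treatment, and nothing in the labels told whether the replicates were separate cultures. The p-values therefore measured only the spread between these libraries, which may be technical.

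Wortmannin is a fungal steroid-like compound that binds covalently to phosphoinositide 3-kinases (PI3K). PI3K makes a membrane lipid that recruits the kinase AKT, and AKT in turn keeps FOXO transcription factors out of the nucleus and feeds the growth kinase mTOR. When the pathway is off, FOXO factors can switch on genes such as IGFBP1 and IRS2, while ribosome production, glycolysis and entry into the cell cycle depend on the pathway being on. At high doses wortmannin also inhibits relatives of PI3K such as mTOR, DNA-PK and ATM, and it is short-lived in culture medium.

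Total counts per library ranged from 20806694 to 26436841, and 15445 to 16216 genes had 10 or more counts. Of the variance between the 6 libraries 73.9% lay on a first principal component, on which the vehicle libraries stood at -13.2 to -11.8 and the wortmannin libraries at 12.2 to 12.4. Of 10 astrocyte and glioma markers, VIM (4076 to 4512 CPM, the counts scaled to a common library total), CD44, TNC, SOX9, SLC1A3 and NES were detected. The defining astrocyte markers GFAP, AQP4, ALDH1L1 and S100B had at most 6 counts in any of these libraries, so that the label astrocytoma was not backed by mature astrocyte genes. Mesenchymal COL1A2 stood at 2065 to 2218 CPM, and the epithelial markers EPCAM, KRT20 and CDH1 had at most 2 counts. The epithelial keratins KRT18 and KRT8 were detected, at 216 to 250 CPM and 18.6 to 23.7 CPM. The summed level of the 10 astrocyte and glioma markers, mostly VIM and CD44, was 7945 to 8304 CPM in vehicle and 7892 to 8112 CPM with wortmannin. Within this sum TNC stood at 899 to 919 CPM in vehicle and 686 to 700 CPM with wortmannin. SLC1A3 stood at 33.2 to 34.3 CPM and 46.4 to 50.1 CPM. The summed level of 3 immune markers, mostly CD68, was 149 to 156 CPM and 166 to 173 CPM. That of 3 neuronal markers was 65.2 to 66.8 CPM and 82.9 to 84.1 CPM. The share of counts from mitochondrial mRNAs was 4.06 to 4.34% in vehicle and 4.66 to 5.01% with wortmannin. The part of these shifts in the results was not tested.

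Wortmannin changed many genes by a little and few by much. Of 13739 genes tested, 374 (2.72%) were differentially expressed genes (DEGs), defined by an adjusted p under 0.05 in the Wald test of DESeq2 and a change of more than 1.5-fold. Of these, 238 rose (1.73% of the genes tested) and 136 fell (0.99%). edgeR's quasi-likelihood test with the same thresholds called 687, of which 483 rose, and a DESeq2 test against the fold threshold itself left 23. Without the fold requirement 4739 genes (34.5%) passed, of which 1925 rose (14.0%) and 2814 fell (20.5%), with a median change of 0.25 on the log2 scale regardless of sign. A change of more than 2-fold was fitted for 53 DEGs, 41 that rose and 12 that fell. The DEGs that rose had a median level of 117 normalized counts (counts divided by DESeq2's size factors) and those that fell a median of 287. Over all genes tested 55.9% had groups that did not overlap. Protein-coding genes made up 318 of the DEGs and long noncoding RNAs 37. The vehicle groups of batches A and B gave 1 DEG among 28731 genes tested (0.00348%), with 255 genes at an unadjusted p under 0.05, but their same-numbered libraries were the most alike of all vehicle pairs, so this count is no independent background. The plot of fold change against level shows DEGs that rose from the scarcest genes tested up to the very abundant TIMP1.

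**Figure D1:**
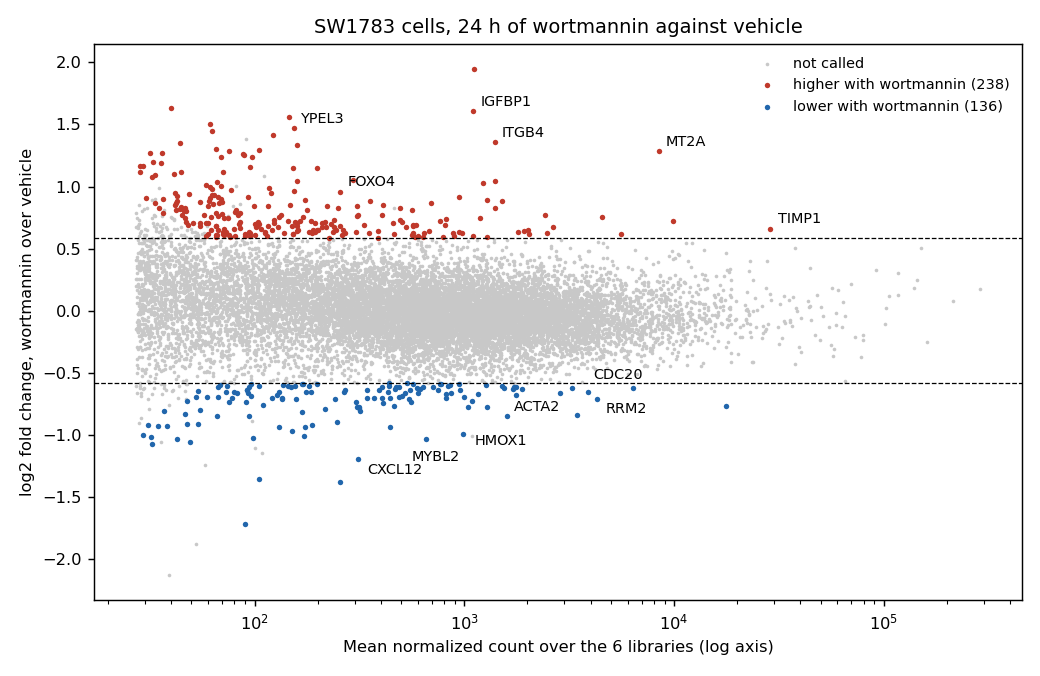
Log2 fold change of wortmannin over vehicle in SW1783 cells (y axis) against the mean normalized count over the 6 libraries (x axis, log scale) for the 13739 genes tested, 1 point per gene. Red points are the 238 DEGs that rose, blue points the 136 that fell, grey points genes not called, and dashed lines mark 1.5-fold; most genes lie between the lines.

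The largest rises included a secreted growth factor inhibitor, an integrin and a metal-binding protein. IGFBP1 (ENSG00000146678; chromosome 7, 45888360 to 45893660), which binds insulin-like growth factors and is a classical FOXO target, stood at 537, 570.2 and 524 normalized counts in vehicle and at 1583, 1647 and 1736 with wortmannin (log2 fold change 1.60 ± 0.07, adjusted p = 2.24e-124). ITGB4 (ENSG00000132470; chromosome 17, 75721328 to 75757818), the integrin subunit of hemidesmosomes, went from 828, 747 and 776 to 1973, 2009.9 and 2027 normalized counts (log2 fold change 1.36 ± 0.06, adjusted p = 3.29e-121). MT2A (ENSG00000125148; chromosome 16, 56608584 to 56609497), a metallothionein that binds zinc and copper, was by far the most abundant of the 12 largest rises, with 4711, 4775 and 5286 normalized counts in vehicle and 11760.0, 12028 and 12204 with wortmannin (log2 fold change 1.29 ± 0.05, adjusted p = 6.16e-119). For each of these 3 genes the replicates of a group lay close together and the groups were far apart. Groups without overlap were a condition for naming these genes, and 55.9% of all genes tested met it.

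The other rises concerned less abundant genes. YPEL3 (ENSG00000090238; chromosome 16, 30092314 to 30096915), a small nuclear protein linked to growth arrest, went from 69.2, 94.1 and 81.6 to 229, 211 and 241 normalized counts (log2 fold change 1.47 ± 0.17, adjusted p = 1.66e-16). VIPR1, a receptor of the neuropeptide VIP, had 60.3, 62.7 and 78.2 normalized counts in vehicle and 188, 173 and 176 with wortmannin (log2 fold change 1.42 ± 0.19, adjusted p = 5.66e-13). JUP, the plakoglobin of cell junctions, went from 91.5, 88.6 and 103 to 183, 203 and 242 (log2 fold change 1.15 ± 0.17, adjusted p = 3.08e-10). The groups of these genes did not overlap, which their choice required. VAT1L, IFITM10, FAXDC2, TMEM132B and RNASE4, a secreted ribonuclease, rose by 1.33, 1.15, 1.29, 1.56 and 1.05 on the log2 scale. RNASE4 shares its strand and part of its locus with ANG, so the split of reads between them was uncertain. EIF3CL, the largest fitted rise with 1.95 ± 0.53, was a near-identical copy of the translation factor gene EIF3C. Its libraries held 260.0, 718 and 399 normalized counts in vehicle and 1337, 2545 and 1422 with wortmannin, against 9951 to 13853 for EIF3C, and the 2 copies summed gave 13998 to 14180 in vehicle and 12228 to 12497 with wortmannin. The sum of the copies therefore went down while EIF3CL went up, and EIF3CL was no longer called when batch B vehicles (1.88 ± 1.01) or all 18 SW1783 libraries (1.95 ± 1.39) entered the fit, at a similar fold and a larger SE.

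The largest falls included a chemokine, a proliferation factor and a heme-degrading enzyme. CXCL12 (ENSG00000107562; chromosome 10, 44370165 to 44386493), a chemokine of stromal cells, stood at 434, 448 and 419 normalized counts in vehicle and at 227, 179 and 163 with wortmannin (log2 fold change -1.20 ± 0.12, adjusted p = 4.43e-20). HMOX1 (ENSG00000100292; chromosome 22, 35380361 to 35394214), heme oxygenase 1, went from 1354, 1288 and 1316 to 655, 659 and 672 (log2 fold change -0.99 ± 0.06, adjusted p = 1.34e-52). MYBL2 (ENSG00000101057; chromosome 20, 43667019 to 43716495), a transcription factor of proliferating cells, went from 945, 848 and 856 to 436, 454 and 401 (log2 fold change -1.04 ± 0.08, adjusted p = 4.81e-34). In all 3 genes every wortmannin library lay far below the lowest vehicle library, and the choice of these genes required that the groups not overlap. LRRC15, a membrane protein of activated mesenchymal cells, had 614, 582 and 542 normalized counts in vehicle and 303, 295 and 308 with wortmannin (log2 fold change -0.94 ± 0.10, adjusted p = 6.33e-21). BIRC3, an inhibitor of apoptosis and NF-kB target, went from 260.0, 241 and 237 to 143, 130.1 and 116 (log2 fold change -0.92 ± 0.15, adjusted p = 4.15e-09). AP1M2 (an adaptor subunit of epithelial-type sorting), CHAC2 (a glutathione-degrading enzyme), DGKB (a diacylglycerol kinase), ANXA3 (an annexin) and the noncoding LINC01224 fell by 1.01, 0.97, 0.94, 0.90 and 0.94 on the log2 scale. The remaining 2 of the 12 largest falls were less certain. ENSG00000256500, whose locus overlaps KLC1 and COA8, went from 427, 399 and 283 to 222, 70.2 and 134 normalized counts and lost its call without vehicle replicate 1, vehicle replicate 2 or wortmannin replicate 3 (-1.34 to -1.26). ENSG00000282955, which had no position in the annotation, went from 169.6, 152 and 130.3 to 62.2, 59.0 and 56.0 normalized counts but changed by only -0.57 against the vehicles of batch B, where it was not called.

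**Figure D2:**
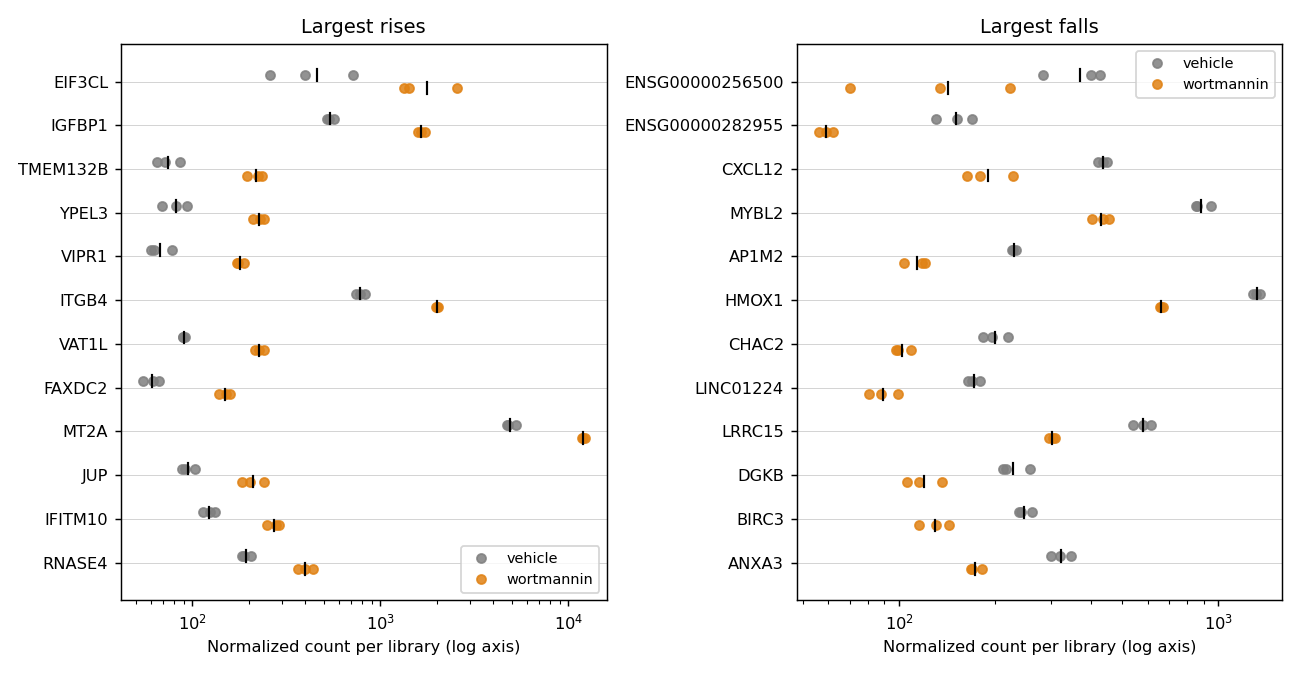
Normalized counts (x axis, log scale) of the 12 largest rises and the 12 largest falls (y axis) in SW1783 cells, 1 point per library, grey for vehicle and orange for wortmannin, with a black bar at the mean of each group (n = 3). The groups do not overlap for any gene shown, which the choice of these genes required, and the replicates of EIF3CL and ENSG00000256500 spread most.

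Genes of the PI3K pathway itself were mostly near their vehicle level. Of 38 pathway components tested, 2 were DEGs, both higher, against 2.72% of all genes, and the median log2 fold change was 0.00 against -0.01 over all genes tested. Both encode inhibitors of the pathway. PIK3IP1, which restrains PI3K, went from 34.6, 44.3 and 37.4 to 75.4, 87.4 and 72.7 normalized counts (log2 fold change 1.01 ± 0.26, adjusted p = 6.09e-04). DEPTOR, which binds and inhibits mTOR, went from 41.3, 45.2 and 29.5 to 67.9, 71.2 and 74.4 (log2 fold change 0.87 ± 0.27, adjusted p = 0.00521), a call that was lost without vehicle replicate 3 (0.72). At any fold 7 components rose (18.4%, against 14.0% of all genes) and 6 fell (15.8%, against 20.5%). Among them were the class III kinase PIK3C3 with 0.32 ± 0.07, MTOR with -0.20 ± 0.03 and PIK3CD with -0.26 ± 0.09. The catalytic subunit PIK3CA (0.10 ± 0.05, adjusted p = 0.0838) did not pass. Among 9 other kinases that wortmannin can inhibit, none was a DEG. PRKDC (DNA-PK) fell by 0.35 and PLK1 by 0.44 on the log2 scale, and ATM rose by 0.22.

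Receptors and adaptors upstream of PI3K were higher more often than lower. Of 17 tested, 3 were DEGs and all 3 rose, against 1.73% of all genes. At any fold 9 rose (52.9%, against 14.0% of all genes) and 4 fell (23.5%, against 20.5%). IRS2, an adaptor of the insulin receptor, went from 436, 519 and 565 to 749.5, 772 and 822 normalized counts (log2 fold change 0.62 ± 0.09, adjusted p = 5.57e-11). PDGFRA, the receptor of platelet-derived growth factors that marks many gliomas, went from 733, 710.5 and 686 to 1051, 1053 and 1121 (log2 fold change 0.60 ± 0.07, adjusted p = 2.83e-17). FGFR3 rose by 0.61 ± 0.20, INSR by 0.36 ± 0.08 and IRS1 by 0.28 ± 0.04, the last 2 below the fold requirement. The 3 DEGs lay near the thresholds. IRS2 came under the fold requirement without vehicle replicate 1 (0.53), PDGFRA without vehicle replicate 3 or wortmannin replicate 3 (0.57 to 0.58), and FGFR3 lost its call without vehicle replicate 1 or wortmannin replicate 2 (0.49 to 0.55). EGFR, MET, AXL and FGFR1 each fell, by 0.08 to 0.11 on the log2 scale.

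FOXO factors and their targets included several of the rises. Of 34 genes listed 27 were tested, 7 were DEGs and all 7 rose, against 1.73% of all genes, while at any fold 14 rose (51.9%, against 14.0% of all genes) and 4 fell (14.8%, against 20.5%) with a median of 0.19. Beside IGFBP1, YPEL3, PIK3IP1 and IRS2 these were FOXO4, TXNIP and PDK4. FOXO4 (ENSG00000184481; chromosome X, 71095851 to 71103532), itself a FOXO factor, went from 175, 168 and 180.2 to 321, 347 and 348 normalized counts (log2 fold change 0.96 ± 0.12, adjusted p = 2.49e-13). TXNIP, which binds thioredoxin and lowers glucose uptake, went from 231, 219.6 and 238 to 354, 396 and 426 (log2 fold change 0.77 ± 0.12, adjusted p = 5.25e-10). PDK4, the kinase that shuts pyruvate out of mitochondria, was scarce, with 40.2, 34.1 and 36.3 in vehicle and 60.3, 56.9 and 60.4 with wortmannin (log2 fold change 0.69 ± 0.28, adjusted p = 0.0414), and lost its call when any library other than vehicle replicate 1 was left out (0.63 to 0.71). CCNG2 (0.57 ± 0.08), BCL6 (0.52 ± 0.08) and CDKN1B, the cell cycle inhibitor p27 (0.25 ± 0.08), rose below the fold requirement. The list did not move as a whole. GADD45A fell by 0.50 and FBXO32 by 0.38 on the log2 scale, FOXO3 fell by 0.14, and FOXO1 stood at -0.02 ± 0.10 (adjusted p = 0.92). TRIM63, KLF15, FOXO6, ERBB3, BBC3 and PCK1 were too scarce to be tested, and SOD2 was not matched in the table.

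The FOXO core motif GTAAACA, searched on both strands, was present in the promoters of 3 of the 6 FOXO-list DEGs for which RefSeq (GRCh38.p14) gave a promoter, here 250 bases before to 50 after the start. IGFBP1 was the gene without an entry. Over the whole list 4 of 28 promoters (14.3%) held the motif, against 931 of 27305 promoters (3.41%). Among all DEGs with an entry the shares were near that of all promoters, 7 of 157 that rose (4.46%) and 3 of 98 that fell (3.06%). A match is a description of the letters and not a bound site. The windows are shown because these 3 genes and CTSF, a lysosomal protease described below, rose with wortmannin. Each is 30 bases, 5′ to 3′ on the strand of the gene, with the motif in capitals.
YPEL3 (chr16:30096195-30096224, minus strand): ctgggctcggtGTAAACAagtccaggcgcc
FOXO4 (chrX:71095863-71095892, plus strand): cccggcgagtgGTAAACAgagacgtcagga
TXNIP (chr1:145996685-145996714, minus strand): tcgggctcctgGTAAACAaggaccgggcag
CTSF (chr11:66568627-66568656, minus strand): acgtgcctcctGTAAACAagagaacgcgca
All 4 carried the motif in the reading GTAAACA on the gene's own strand. Relative to the RefSeq start it began at the first base of YPEL3, 24 bases into FOXO4 counted from 1 at the start, 124 bases before the start of TXNIP and 39 before that of CTSF.

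Genes of the insulin-like growth factor system rose more often than they fell. Of 12 tested, IGFBP1 was the DEG, and at any fold 7 rose, IGFBP1 included, and 1, STC2, fell, against 14.0% and 20.5% of all genes, while 4 did not pass. IGFBP7 rose by 0.35 ± 0.04 and PAPPA, a protease that cleaves binding proteins, by 0.33 ± 0.04. The growth factor gene IGF2 was too scarce to be tested, with 2 to 6 counts per library in vehicle and 17 to 24 with wortmannin, and these raw counts did not overlap.

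**Figure D3:**
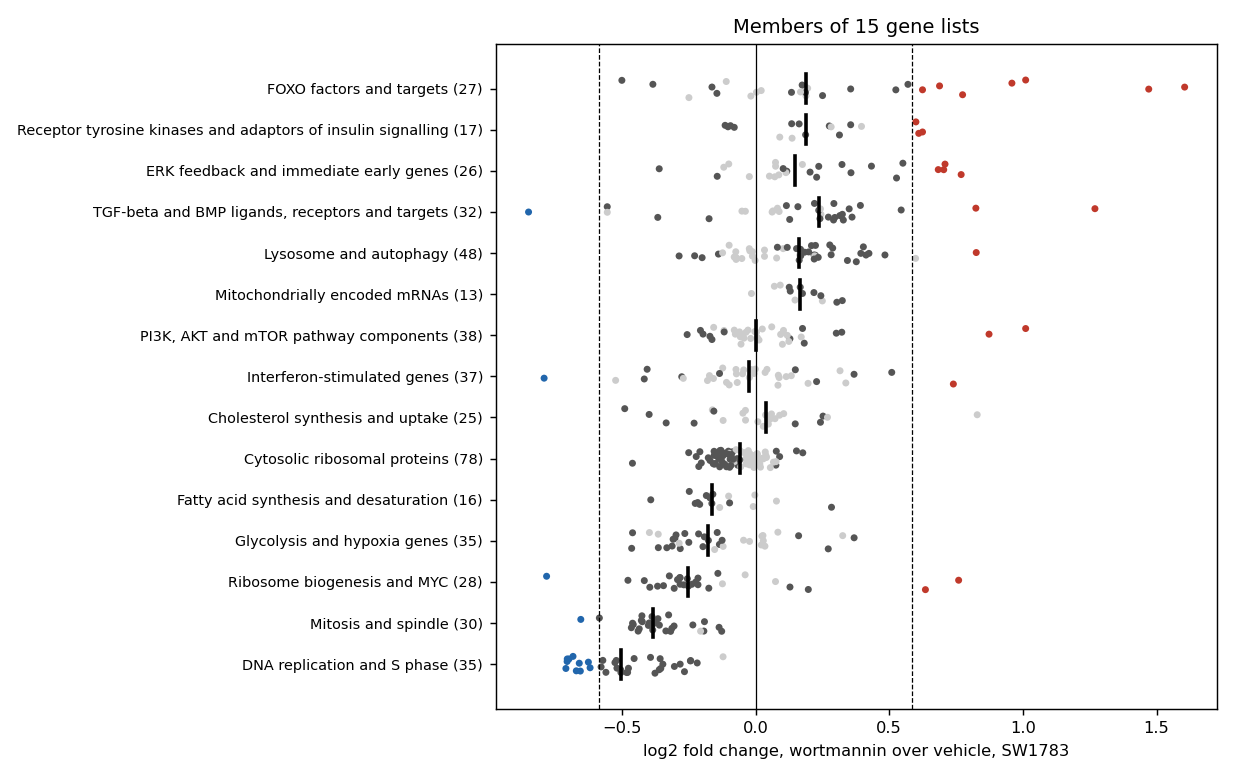
Log2 fold change of wortmannin over vehicle in SW1783 cells (x axis) for the tested members of 15 gene lists (y axis, number tested in parentheses), 1 point per gene with vertical scatter for visibility. Red and blue points are DEGs that rose and fell, dark grey points passed the adjusted p alone, light grey points did not, black bars are medians and dashed lines mark 1.5-fold; the replication list lies wholly below 0 and the FOXO list reaches furthest up.

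Genes of DNA replication and mitosis fell almost without exception, by less than 2-fold each. Of 35 genes of DNA replication and S phase, 34 fell at any fold and none rose, against 20.5% and 14.0% of all genes tested. Among them 10 were DEGs, all lower, against 0.99% of all genes. The median log2 fold change was -0.50. RRM2, a subunit of the enzyme that makes deoxyribonucleotides, went from 5429.5, 5283 and 5231 to 3316, 3283 and 3155 normalized counts (log2 fold change -0.71 ± 0.03, adjusted p = 6.79e-95). TYMS, thymidylate synthase, went from 2268, 2139 and 2127 to 1309.5, 1374 and 1385 (log2 fold change -0.68 ± 0.05, adjusted p = 4.01e-40). Both enzymes supply precursors of DNA, and in each the groups lay far apart while replicates differed little.

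Factors that load and start the replicative helicase fell in the same range. CDC6, which loads the MCM helicase, went from 2208, 2085 and 2141 to 1442, 1329.8 and 1414 (log2 fold change -0.62 ± 0.05, adjusted p = 9.28e-33), and CDC45, a part of the active helicase, from 614, 609.9 and 594 to 379.9, 372 and 369 (log2 fold change -0.70 ± 0.09, adjusted p = 4.90e-14). GINS2, GINS4 and MCM10 fell by 0.70, 0.67 and 0.63 on the log2 scale, and the transcription factors E2F2 and E2F8 by 0.70 and 0.66, of which E2F8 came under the fold requirement without wortmannin replicate 3 (-0.58). The MCM subunits themselves changed less, from -0.22 ± 0.05 for MCM5 to -0.45 ± 0.03 for MCM7. CCNE1, the cyclin of the G1 to S transition, was the member that did not pass, at -0.12 ± 0.09 (adjusted p = 0.287).

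Mitosis genes moved the same way with smaller changes. Of 30 tested, 29 fell at any fold (96.7%, against 20.5% of all genes), none rose, and the median was -0.38. CDC20, the activator of the anaphase-promoting complex, was the DEG among them, with 4862, 4665 and 4769.5 normalized counts in vehicle and 3045, 2979 and 3059 with wortmannin (log2 fold change -0.65 ± 0.03, adjusted p = 1.30e-78). AURKB changed by -0.58 ± 0.08, CDK1 by -0.46 ± 0.05 and MKI67, the proliferation marker Ki-67, by -0.38 ± 0.03. Among 14 G1 cyclins and inhibitors there was no DEG. The inhibitors CDKN2B, CDKN1A, CDKN2A and CDKN1B rose by 0.38, 0.36, 0.34 and 0.25 on the log2 scale, and the kinases CDK6, CDK2 and CDK4 fell by 0.47, 0.41 and 0.27. CCND1, cyclin D1, rose by 0.10 ± 0.04. In bulk RNA, fewer cells of a cycle phase and less RNA per cell cannot be told apart.

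Genes for making ribosomes were lower, and antagonists of MYC were higher. Of 28 genes of ribosome biogenesis and the MYC network, 21 fell at any fold (75.0%, against 20.5% of all genes) and 4 rose (14.3%, against 14.0%). The median was -0.25. MXI1 and MXD4, which compete with MYC for its partner MAX, were the 2 DEGs that rose, against 1.73% of all genes. MXI1 went from 237, 212 and 240.2 to 381, 374 and 408 normalized counts (log2 fold change 0.76 ± 0.11, adjusted p = 4.21e-10) and MXD4 from 739, 734 and 740.0 to 1189.8, 1120.4 and 1125 (log2 fold change 0.64 ± 0.07, adjusted p = 7.73e-21). MYC itself stood at 0.07 ± 0.06 (adjusted p = 0.377). LYAR, a nucleolar protein, was the DEG that fell, from 405, 388 and 400.0 to 222, 229.8 and 241 (log2 fold change -0.78 ± 0.11, adjusted p = 2.45e-11), and NPM1, MRTO4 and BOP1 fell by 0.42, 0.48 and 0.40 below the fold requirement. The mRNAs of the 78 cytosolic ribosomal proteins moved little. Of these 36 fell (46.2%) and 5 rose (6.41%), none was a DEG, and the median was -0.06.

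Many lysosomal genes were higher, by small steps. Of 48 lysosome and autophagy genes tested, 25 rose at any fold (52.1%, against 14.0% of all genes) and 4 fell (8.33%, against 20.5%), with a median of 0.16. The count of DEGs, 1, was near the share of 2.72% over all genes. CTSF, cathepsin F, went from 338, 355 and 375 to 576, 636 and 679.6 normalized counts (log2 fold change 0.83 ± 0.10, adjusted p = 1.40e-16). CTSB rose by 0.48 ± 0.02, GAA, the lysosomal glycogen enzyme, by 0.42 ± 0.05, TPP1 by 0.40 ± 0.03, NPC2 by 0.39 ± 0.04 and CTSD by 0.38 ± 0.03. The autophagy genes NBR1, GABARAPL1 and ULK1 rose by 0.41, 0.34 and 0.28 on the log2 scale. SQSTM1, the autophagy receptor p62, fell by 0.14, and RRAGC and FLCN, which act on the lysosome in amino acid sensing, by 0.29 and 0.20. The transcription factors of lysosomal genes were near their vehicle level, with TFEB at -0.01 ± 0.11 (adjusted p = 0.951) and TFE3 at -0.05 ± 0.04 (adjusted p = 0.326).

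The E-box CACGTG, which reads the same on both strands and lies within the motif that TFEB and its relatives bind, was present in 11 of the 34 promoters of the lysosome list that had a RefSeq entry (32.4%), against 2030 of 27305 promoters (7.43%). The share was 21.4% in the FOXO list, 21.1% in the list of cholesterol synthesis and 10.2% among DEGs that rose, so it was not particular to lysosomal genes. Of the 25 members that rose, 17 had an entry and 6 held the motif. Windows of 30 bases are shown for the 4 of them that rose most, with the E-box in capitals, 5′ to 3′ on the strand of the gene.
CTSF (chr11:66568712-66568741, minus strand): acatataacaagCACGTGatagaggtcagt
CTSF (chr11:66568640-66568669, minus strand): ccctgcgcgcccCACGTGcctcctgtaaac
GAA (chr17:80101493-80101522, plus strand): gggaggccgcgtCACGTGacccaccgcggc
GAA (chr17:80101538-80101567, plus strand): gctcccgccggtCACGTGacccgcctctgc
CTSD (chr11:1763957-1763986, minus strand): gccggccgcgccCACGTGaccggtccgggt
CTSA (chr20:45891281-45891310, plus strand): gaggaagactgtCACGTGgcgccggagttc
CTSA (chr20:45891298-45891327, plus strand): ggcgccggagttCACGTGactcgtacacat
CTSF, GAA and CTSA each held 2 E-boxes and CTSD 1, and CTSF was the one that also held the FOXO core.

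Many genes of glycolysis and fatty acid synthesis fell slightly. Of 35 genes of glycolysis and the hypoxia response, 18 fell at any fold (51.4%, against 20.5% of all genes) and 3 rose (8.57%, against 14.0%). None was a DEG, and the median was -0.18. PDK1, LDHA, ENO1, SLC2A1 (the glucose transporter GLUT1) and GAPDH fell by 0.46, 0.33, 0.31, 0.30 and 0.20 on the log2 scale. Of 16 genes of fatty acid synthesis 10 fell (62.5%) and 1, ACSS2, rose (6.25%), with a median of -0.16, and FASN itself stood at -0.01 ± 0.03 (adjusted p = 0.843). Cholesterol synthesis showed no common direction. Of 25 genes tested 3 rose and 5 fell. None of 7 genes of cholesterol efflux was a DEG, and 1, ABCA1, fell, by 0.45. Of 13 mRNAs of the mitochondrial genome 8 rose (61.5%) and none fell, with a median of 0.17, while neither mitochondrial ribosomal RNA passed.

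Targets and feedback genes of the parallel ERK pathway rose more often than they fell. Of 26 tested, 4 were DEGs, all higher, against 1.73% of all genes, and at any fold 14 rose (53.8%, against 14.0%) and 2 fell (7.69%, against 20.5%). ETV1, an ETS transcription factor, went from 1857, 1738 and 1790.4 to 3036, 3064 and 3069.5 normalized counts (log2 fold change 0.77 ± 0.04, adjusted p = 9.92e-71), and its relative ETV4 from 138, 163 and 175 to 263, 257 and 258 (log2 fold change 0.71 ± 0.14, adjusted p = 2.81e-06). EGR1, an immediate early gene, went from 437, 431 and 442 to 638, 768 and 699 (log2 fold change 0.68 ± 0.09, adjusted p = 3.75e-13), and FOS was scarce, with 32.9 to 46.9 in vehicle and 59.4 to 69.2 with wortmannin (log2 fold change 0.70 ± 0.28, adjusted p = 0.0347). The call of FOS was lost when any library other than vehicle replicate 1 was left out (0.60 to 0.75). The ERK phosphatases DUSP6 and DUSP4 rose by 0.53 ± 0.08 and 0.43 ± 0.04, SPRY4 and SPRY2, which dampen receptor signalling, by 0.36 ± 0.08 and 0.32 ± 0.08. FOSL1 fell by 0.36 on the log2 scale, and JUN stood at -0.02 ± 0.05 (adjusted p = 0.747).

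Genes of TGF-beta signalling and of matrix proteases and their inhibitors rose more often than they fell, while collagens and other matrix genes moved both ways. TIMP1, an inhibitor of matrix proteases and among the most abundant DEGs, went from 22267, 22481 and 22110.0 to 34641, 35001 and 35947 normalized counts (log2 fold change 0.66 ± 0.02, adjusted p = 5.11e-265). It was the DEG among 16 proteases and inhibitors, of which 8 rose and 3 fell. Of 32 TGF-beta and BMP genes 19 rose at any fold (59.4%, against 14.0% of all genes) and 4 fell (12.5%, against 20.5%), with a median of 0.24. Among them 2 were DEGs that rose and 1 a DEG that fell, against 1.73% and 0.99% of all genes. LTBP2, a matrix protein, went from 981, 996 and 1047 to 1754, 1780.2 and 1817 (log2 fold change 0.82 ± 0.05, adjusted p = 5.16e-49), and BMP6, a scarce ligand, from 16.7, 16.6 and 22.7 to 49.0, 40.7 and 44.7 (log2 fold change 1.27 ± 0.36, adjusted p = 0.00189), too low to be tested when any wortmannin library was left out. TGFB1, the TGF-beta ligand, rose by 0.54 ± 0.07. ACTA2, smooth muscle actin, fell from 2065, 2069.5 and 2016 to 1209.6, 1128 and 1079.8 (log2 fold change -0.85 ± 0.05, adjusted p = 4.30e-54). Among 32 collagens and matrix genes 14 rose at any fold (43.8%, against 14.0% of all genes) and 11 fell (34.4%, against 20.5%). Their count of DEGs, 1, was near the share of 2.72% over all genes. ELN, elastin, was the DEG among them, from 71.4, 91.3 and 91.8 to 48.1, 52.9 and 41.2 (log2 fold change -0.85 ± 0.25, adjusted p = 0.00266). FN1, fibronectin, rose by 0.50 ± 0.01 and TNC, tenascin C, fell by 0.41.

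Further adhesion and cytoskeletal genes were picked after their values were seen. FLNC, the actin cross-linker filamin C, fell from 22468, 22049 and 21990.0 to 13300.0, 13082 and 12703 normalized counts (log2 fold change -0.77 ± 0.02, adjusted p = 8.84e-275). CSPG4, the surface proteoglycan NG2 of glial precursors and pericytes, fell from 4419, 4532 and 4369.5 to 2546, 2483 and 2414 (log2 fold change -0.84 ± 0.04, adjusted p = 2.22e-112). Of 26 integrin subunit genes 17 were tested, 5 were DEGs and all 5 rose, against 1.73% of all genes, and ITGB4, for which the family was chosen, is 1 of them. Beside ITGB4 these were the collagen-binding subunits ITGA11, ITGA2 and ITGA1, with log2 fold changes of 0.75, 0.72 and 0.68, and ITGB2 with 0.63. Against the vehicles of batch B ITGB2 changed by 0.39, under the fold requirement, and was not called. ITGA5 and ITGA4, which bind fibronectin, fell by 0.16 and 0.21. Among the metallothioneins MT1E, with 305, 366 and 371 in vehicle and 587, 576 and 541 with wortmannin, rose together with MT2A, and MT1X did not pass (0.28 ± 0.12, adjusted p = 0.0653). Of 10 metallothionein genes 3 were tested and 2 were called, both higher, against 1.73% of all genes. MT2A, already among the largest rises when the family was looked at, is 1 of them. The pseudogene MT1L, not counted in the 10, also rose (0.92 ± 0.30, adjusted p = 0.00923) but was not called against the vehicles of batch B (0.58).

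Some chemokine genes fell, and NF-kB and interferon genes moved little as groups. Of 8 genes tested in the chemokine list, which also holds the receptor ACKR3, 3 were DEGs and all 3 fell, against 0.99% of all genes. Beside CXCL12 these were CXCL8, from 110.5, 132 and 139 to 83.9, 77.3 and 89.3 normalized counts (log2 fold change -0.61 ± 0.19, adjusted p = 0.00668), and ACKR3, the scavenger receptor of CXCL12, from 43.5, 55.4 and 52.1 to 29.2, 27.4 and 22.8 (log2 fold change -0.93 ± 0.32, adjusted p = 0.0123). Both calls were lost without single libraries, CXCL8 without vehicle replicate 2, vehicle replicate 3 or wortmannin replicate 2 (-0.58 to -0.54) and ACKR3 without vehicle replicate 2, vehicle replicate 3 or wortmannin replicate 3 (-0.91 to -0.83), and ACKR3 was too scarce to be tested without wortmannin replicate 1. CCL2 rose by 0.52 ± 0.08. The other 13 genes of the chemokine list were too scarce to be tested. Of 22 NF-kB and cytokine genes BIRC3 and TNFAIP6 were DEGs, both lower, and at any fold 4 rose and 6 fell (18.2% and 27.3%, near the 14.0% and 20.5% of all genes), VCAM1 (0.48 ± 0.19) and PTGS2 (0.33 ± 0.05) among those that rose. TNFAIP6 (log2 fold change -0.62 ± 0.16, adjusted p = 8.87e-04) came under the fold requirement without wortmannin replicate 1 or 2 (-0.57 to -0.55). Of 37 interferon-stimulated genes 5 rose and 5 fell (13.5% each, against 14.0% and 20.5% of all genes). IFITM1 rose from 639, 597 and 597 to 1025, 1026 and 1009.7 (log2 fold change 0.74 ± 0.07, adjusted p = 1.79e-24), OASL fell from 256, 304 and 269 to 161, 138 and 179 (log2 fold change -0.79 ± 0.14, adjusted p = 2.38e-07), and 27 did not pass. Of 15 genes of class I antigen presentation 6 rose (40.0%) and 3 fell (20.0%), with no DEG.

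Stress and death genes gave at most 1 DEG per list, which does not set them apart from the 2.72% of all genes. Of 21 p53 targets, TP53INP1, which acts in autophagy and apoptosis, was a DEG, from 125, 149 and 147 to 225, 227 and 242 normalized counts (log2 fold change 0.72 ± 0.15, adjusted p = 6.59e-06), while CDKN1A rose by 0.36 only. BMF, a killer protein of the BCL2 family, was the DEG among 13 family members, from 102, 113 and 99.7 to 182, 199 and 189 (log2 fold change 0.85 ± 0.16, adjusted p = 1.44e-06). HMOX1 was the DEG among 23 NRF2 targets, of which 5 rose and 8 fell. No DEG was found among 39 genes of the amino acid stress response (8 rose, 13 fell at any fold), 23 chaperones and genes of the unfolded protein response (2 rose, 8 fell), 15 heat shock genes (2 rose, 9 fell) or 17 YAP targets (9 rose, 4 fell). Over all genes 14.0% rose and 20.5% fell at any fold. Of the heat shock genes 13.3% rose and 60.0% fell, and of the YAP targets 52.9% rose and 23.5% fell. NKD1, an inhibitor of WNT signalling, was the DEG among 15 WNT and Notch targets, from 40.2, 41.5 and 43.1 to 73.5, 70.2 and 60.4 (log2 fold change 0.71 ± 0.26, adjusted p = 0.0238), and lost its call without vehicle replicate 2 or 3 or wortmannin replicate 1 or 2 (0.65 to 0.73). None of 10 tested astrocyte and glioma markers and none of 10 tested markers of other cell types was a DEG.

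HT29 cells given the same drug shared 26 of these DEGs. HT29 had 362 DEGs of 13555 genes tested (2.67%). Of the shared DEGs 24 changed in the same direction (17 higher, 7 lower) and 2 in opposite directions, and the 26 were 6.95% of the SW1783 list and 7.18% of the HT29 list. Of the SW1783 DEGs 244 were tested in HT29, so that the shared genes were 10.7% of those that could be called there, against 2.67% of all genes, and 9.59% of the 271 HT29 DEGs tested in SW1783. The change differed between the lines, in a test of the interaction over 12 libraries with the same thresholds, for 460 of 13883 genes (3.31%), with 123 more positive in SW1783 (0.886%) and 337 in HT29 (2.43%), and 102 of the 332 SW1783 DEGs that could be tested were among them. These DEGs were chosen for their change in SW1783, which the interaction also contains. Cell line, medium and plating density differed together and cannot be told apart.

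Replication genes fell in SW1783, whereas in HT29 none was a DEG that fell and 1, CCNE2, was a DEG that rose. Of 35, 10 differed by the interaction test, against 3.31% of all genes, each with the more negative change in SW1783. The median log2 fold change was -0.50 in SW1783 and -0.01 in HT29. RRM2 changed by -0.71 ± 0.03 in SW1783 and -0.06 ± 0.06 in HT29, a difference of -0.67 ± 0.06 (adjusted p = 4.34e-25). CDC6 fell in SW1783, stood at 0.28 ± 0.06 in HT29 and differed by -0.92 ± 0.07 (adjusted p = 4.42e-35). Mitosis genes had medians of -0.38 in SW1783 and -0.57 in HT29. There 13 of 30 were DEGs, all lower, against 2.67% of all genes called in either direction. By the interaction test 2 of 30, CCNB2 and PTTG1, differed, both with the larger fall in HT29. Of the 26 ERK-list genes 4 differed, against 3.31% of all genes. They were the 4 DEGs, chosen for their change in SW1783, which the interaction also contains. Their changes in HT29 were -0.01 to 0.08. Among FOXO genes TXNIP (0.75 ± 0.06 in HT29) and IRS2 (0.48 ± 0.10) did not pass the interaction test, with differences of 0.01 ± 0.11 and 0.13 ± 0.13, whereas 3 of the list did. YPEL3 differed by 1.06 ± 0.19 (adjusted p = 1.14e-06) and CCNG2 by 0.67 ± 0.10, both with the more positive change in SW1783, whereas TNFSF10, a death ligand, had log2 fold changes of -0.25 in SW1783 and 0.74 in HT29 (adjusted p = 0.00718 for the difference). IGFBP1 and CXCL12 were at or near 0 counts in HT29 and could not be compared. Interferon-stimulated genes were the opposite case. In HT29 32 of the 36 tested were DEGs and rose, against 2.67% of all genes called in either direction. Between the lines 30 genes of the list differed, against 3.31% of all genes.

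**Figure D4:**
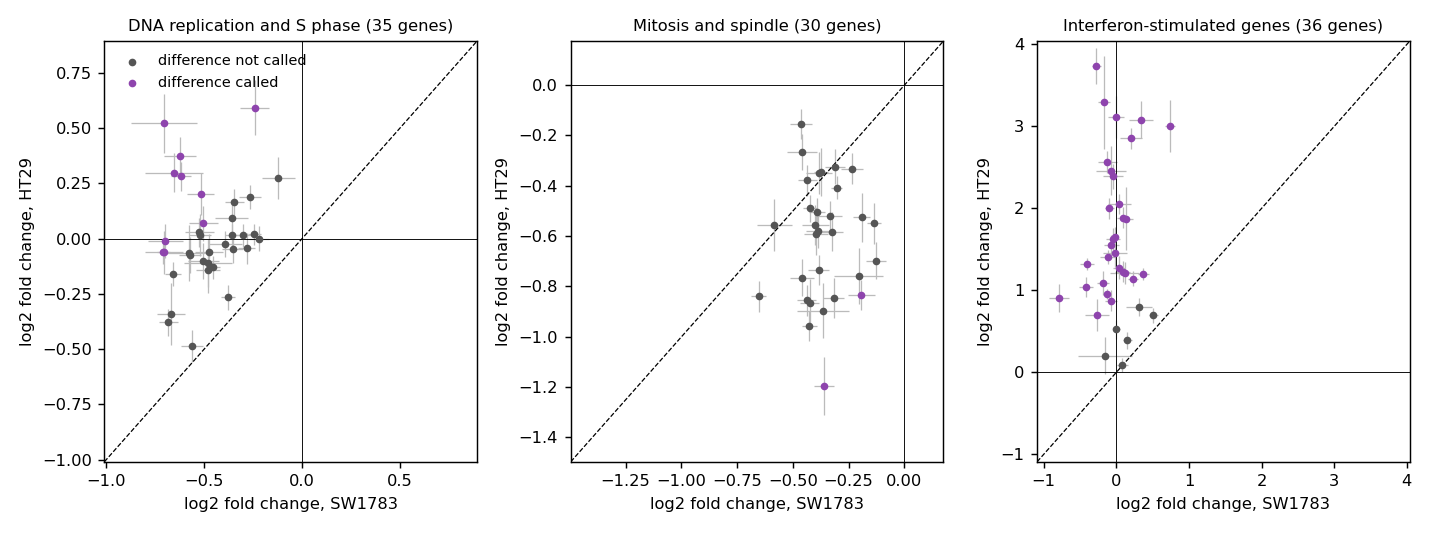
Log2 fold change with wortmannin in SW1783 cells (x axis) and in HT29 cells (y axis) for genes of 3 lists tested in both lines, 1 point per gene with bars of 1 standard error and a dashed line of equal change. Purple points passed the interaction test and its fold requirement; replication genes lie left of 0 and around 0 in HT29, mitosis genes lie at negative values in both lines, and interferon-stimulated genes rise in HT29 at little change in SW1783.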

How the data were processed

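The deposited table held RSEM expected counts per gene, which the authors made from paired-end directional mRNA libraries with Trim Galore 0.6.5, STAR 2.7.3a and RSEM 1.3.3, as the submitters' processing notes name them, while the study's methods give other versions of Trim Galore and STAR. The methods gave the genome as GRCh38 next to another build's name, and the strand setting of RSEM was not given in the sources used here. Expected counts were rounded, since 8.837% were not whole, and 56558 of 60675 genes matched a symbol of GENCODE release 44, whose GRCh38 positions are printed. RSEM divides reads of near-identical genes by a model.

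The Wald test of DESeq2 is the one the study's methods name, and was run here with DESeq2 1.42.0 in R 4.3.3, not the study's versions, on the 6 libraries with group as the only factor. Wald tests were two-sided with Benjamini-Hochberg adjustment over all genes tested, and every adjusted p in the report is of this kind. DESeq2 gave no adjusted p for 15522 scarce genes, which are called not tested. For genes with a mean of 100 or more normalized counts the log2 fold changes had a median standard error (SE) of 0.07. Log2 fold changes are given ± SE, n = 3 per group. The interaction of line and drug was fitted on 12 libraries. A count of 0 allows up to 3 counts, 0.11 to 0.14 CPM, for counting error only.

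Named genes were the 12 largest rises and falls among DEGs with a mean of 100 or more normalized counts and no overlap of groups (232 DEGs), up to 6 DEGs per list with the smallest adjusted p, and list members with their values where they did not pass. GINS2, MCM10, E2F2 and E2F8 were named beyond this rule among the replication DEGs. A few genes that the rule would name are not reported here. Of 13739 genes 55.9% had groups that did not overlap. The 35 gene lists (865 genes) and the comparison were chosen with earlier results of these data known. Alternatives were edgeR 4.0.16, other normalization, filters, thresholds and libraries, and the fits were tested on simulated data.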

Additional observations from a re-analysis of the deposited data

Results flagged for a closer look

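The change with wortmannin differed between SW1783 and HT29 for 460 of 13883 genes (3.31%), by DESeq2's test of the interaction on 12 libraries. Among them were 15 of the 24 named genes, and 102 of the 332 SW1783 DEGs that could be tested. Both sets were chosen for their change in SW1783, which the interaction also contains, so a high share follows in part from the choice. Differences are given as the log2 fold change in SW1783 minus that in HT29. Among the rises the difference was 2.46 for VAT1L, 1.32 for MT2A, 1.17 for JUP, 1.13 for VIPR1, 1.06 for YPEL3, 1.04 for ITGB4, 0.93 for IFITM10 and 0.70 for FAXDC2. JUP and ITGB4 were abundant in HT29, with 10573 and 8432 normalized counts in vehicle, and VAT1L was scarce there, with 8.56. Among the falls it was -2.16 for ENSG00000282955, -0.96 for AP1M2, -0.95 for HMOX1 and ANXA3, -0.88 for BIRC3, -0.76 for MYBL2 and -0.64 for CHAC2.

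The largest differences over all genes included genes that 1 of the lines hardly expressed. ENSG00000267645 (-5.62) and CERS6-AS1 (-3.86) were at or near 0 in HT29 and in SW1783 respectively. GCHFR, the regulator of tetrahydrobiopterin synthesis, rose in SW1783 from 24.5, 39.7 and 36.3 to 93.3, 93.5 and 89.3 normalized counts and differed by 1.81. HCN2, a pacemaker channel, rose in SW1783 from 256, 315 and 306 to 519, 545 and 520.2 and differed by 1.68. It was scarce in HT29, with means of 10.8 normalized counts in vehicle and 6.48 with wortmannin, and was not tested within that line. IFI44L, an interferon-stimulated gene, differed by -4.04, from a rise in HT29 that is not seen in SW1783 (-0.28 ± 0.07). Groups of 3 libraries are too small to look for a single library that stands apart.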

How the results depend on the processing

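Of the 374 DEGs, 368 were also called by edgeR, which called 687 (483 higher, and 660 with the replicate block, 464 higher, a fit added after seeing the data). Without a fold threshold 4739 genes passed (1925 higher, 2814 lower), 470 of them in the lists, and the interaction counted 2021 (726 more positive in SW1783, 1295 in HT29). Testing against the threshold itself left 23 genes (16 higher, 7 lower), 7 in the lists and 10 of the 24 named. Leaving out single libraries gave 299 to 381 DEGs (179 to 243 higher, 117 to 138 lower), 41 to 45 in the lists, 23 to 24 of the named genes, and 402 to 486 interactions (96 to 145 and 292 to 346). Against the vehicles of batch B 258 of the 374 kept their call. Those vehicles were not independent evidence, since vehicles of the same number in both batches were the most alike (chi-square per degree of freedom 1.53 to 1.64, against 2.04 to 3.12 for different numbers). TMM scaling moved the median of all genes by under 0.01. No named gene or DEG of a list reversed under any alternative that tested it; of these 64 genes, 51 lost their call when tested against the threshold itself, 9 against the vehicles of batch B and 3 to 7 when a library was left out, and BMP6 was too scarce to be tested without any 1 wortmannin replicate and ACKR3 without wortmannin replicate 1. Deviations of same-numbered wortmannin and vehicle libraries of batch A from their group means correlated little (0.01, 0.05 and 0.03, against -0.07 to 0.03 for different numbers). Wortmannin replicates 2 and 3 correlated best with the vehicle of their own number, and wortmannin replicate 1 with vehicle replicate 3. Correlations this small, with 3 libraries per group, cannot decide whether the numbers pair these groups. With the replicate block FGFR3, DEPTOR, NKD1, ELN and CXCL8 lost their call, PDK4, FOS, ACKR3 and BMP6 were not tested, and DESeq2 called 253 genes (152 higher, 101 lower), the interaction 266 (55 and 211), and the vehicle comparison 0 by DESeq2 against 1 without it.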
